A study of Mus musculus with 7 samples.

Results

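Serum response factor (SRF), its actin-sensing cofactors and 7 of the contractile and adhesion genes known to answer to them were followed in C2C12 cells, a mouse myoblast line, after treatment with an siRNA against the long noncoding RNA lnc-31. The 10 genes were chosen by name, with earlier results of these data known. They were the transcription factor Srf, the cofactors Mkl1 and Mkl2 (also called MRTF-A and MRTF-B), and Acta2, Actg2, Tagln, Cnn1, Cnn2, Vcl and Tpm1. All 10 were found, each as a single row, among 13376 rows of the deposited expression table. Proliferating cells received either an siRNA against lnc-31 (2 libraries) or a scrambled control siRNA (2 libraries), and no other agent is named in the labels. A separate pull-down recovered RNA with biotinylated antisense probes against lnc-31 (1 library) or against bacterial lacZ (1 library), from cells of the same line. The study was about lnc-31 and translation of the mRNA of Rock1, by its title. Rock1 is a kinase that acts on the actin cytoskeleton. Srf and the 7 contractile and adhesion genes described here are known to be transcribed in answer to the state of that cytoskeleton.

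SRF is a DNA-binding factor that sits on CArG boxes, in which a run of A and T bases lies between CC and GG. Its activity depends on the partner bound to it. MRTF cofactors are held in the cytoplasm by actin monomers, and when actin is built into filaments they enter the nucleus and turn on genes of the cytoskeleton. The ternary complex factors (TCF, such as ELK1) compete for the same surface of SRF and link it to growth factor signals and immediate early genes. In muscle cells SRF also drives the sarcomeric actin genes.

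Expression was given as FPKM, which divides the fragments of a gene by transcript length and by library size, so levels may be compared between genes. Read depth cannot be read off these values, and precision comes only from the spread between libraries, which the labels do not tie to separate cultures. Sums of FPKM were 2141386 and 2201055 in the lnc-31 siRNA libraries, against 1515596 and 2466046 in the scrambled siRNA libraries, while the median row lay between 10.8 and 11.2 FPKM in all 4. The first principal component (41.4% of the variance) set lnc-31 siRNA 1 apart from the other 3 libraries. The row that names Mir31, whose host transcript lies at the lnc-31 locus, stood at 12.1 and 14.1 FPKM in the lnc-31 siRNA libraries and at 13.4 and 15.6 FPKM in the scrambled siRNA libraries (limma adjusted p = 0.38). That row does not show the knockdown, so each direction below belongs to the label lnc-31 siRNA. Myoblast markers were present in every library, with Myod1 between 47.3 and 65.0 FPKM and Myf5 between 35.2 and 38.6 FPKM. In the limma test described below, 4 of 6 were called higher with lnc-31 siRNA, Myod1 among them (adjusted p = 0.019), beside 5.64% of all tested rows. Myf5 went the other way without being called (limma adjusted p = 0.16). It had 35.2 and 35.4 FPKM in lnc-31 siRNA cells, against 38.6 and 37.5 FPKM in scrambled siRNA cells.

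In lnc-31 siRNA cells, 6 of the 10 genes fell and 0 rose in a limma test (7 lower and 0 higher at an unadjusted p under 0.05). Srf, Tagln and Cnn1 were 38.8% to 39.8% lower, Acta2, Actg2 and Cnn2 were 14.4% to 16.9% lower, and Mkl1, Mkl2, Vcl and Tpm1 did not pass the test. Each gene was tested with limma on log2(FPKM + 1) over the 11500 rows that averaged at least 1 FPKM, and called at a Benjamini-Hochberg adjusted p under 0.05. All 10 genes passed that filter. The same test called 12.4% of all tested rows, 6.78% lower and 5.64% higher. The median log2 fold change was -0.23 over the 10 genes and -0.0067 over all tested rows. Because the 10 genes were chosen with earlier results of these data known, setting them beside all rows is a description and not a test. The libraries of the siRNA groups did not overlap, with lnc-31 siRNA lower, for 7 of the 10 genes (the 6 called and Vcl), and the same held for 31.7% of all tested rows. With 2 libraries a group, an exact permutation test of a single gene cannot give a two-sided p below 0.333, so each call rests on the spread that limma shares across rows. Which calls were made depended on the libraries: 2 of the 10 genes were called lower without scrambled siRNA 1 and without scrambled siRNA 2, 3 on leaving out either lnc-31 siRNA library, and 3 with a constant prior variance.

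**Figure D1:**
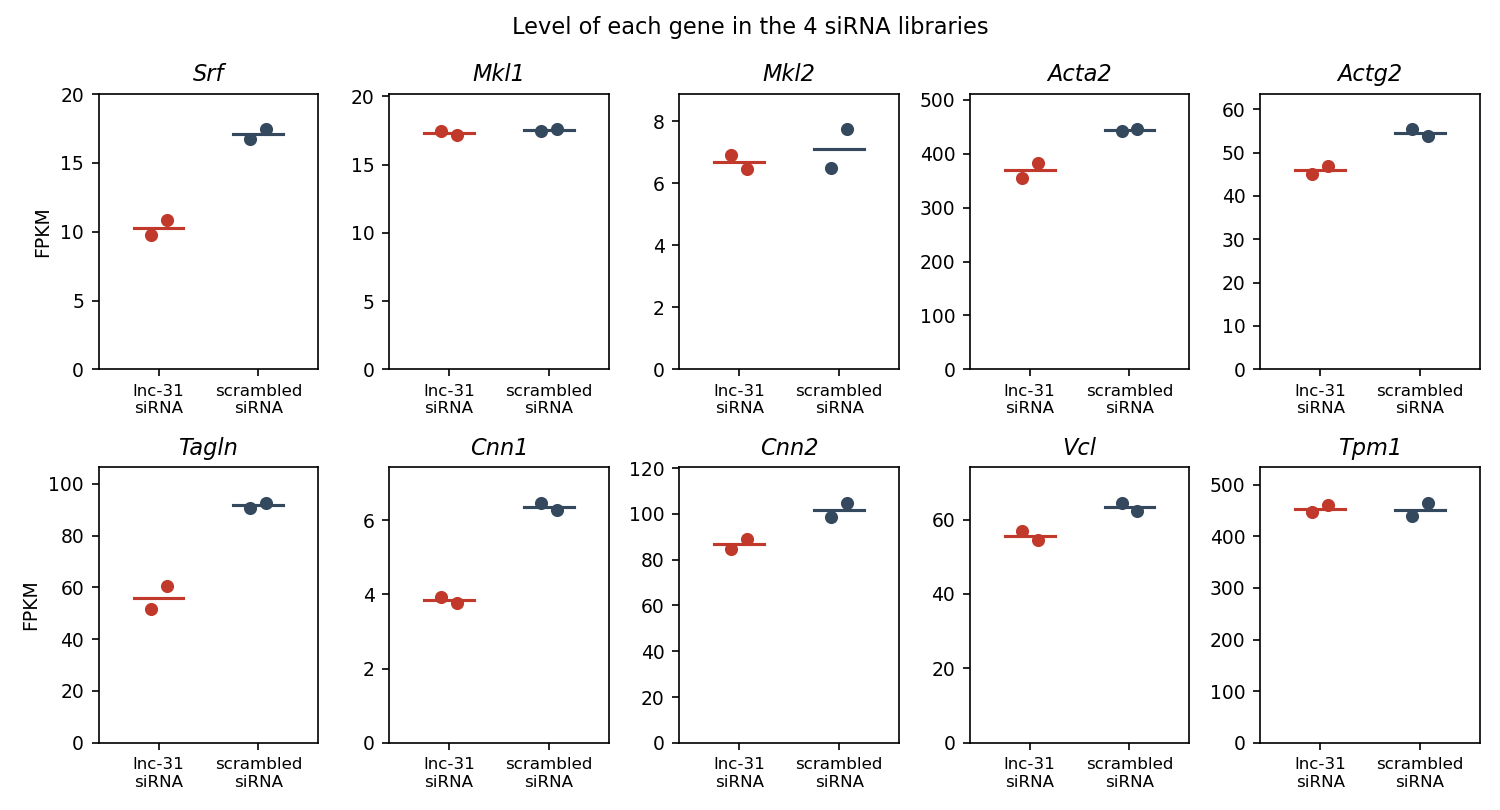
FPKM (y axes, each from 0) of the 10 genes in each library of the lnc-31 siRNA group (left) and of the scrambled siRNA group (right), with points for libraries and lines for group means. Srf, Tagln and Cnn1 show the widest gaps between groups, and the points of Mkl1, Mkl2 and Tpm1 overlap.

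The 10 genes span a wide range of levels. In scrambled siRNA cells Tpm1 and Acta2 were the most abundant, with overlapping FPKM of 439 and 465 for Tpm1 and 442 and 445 for Acta2. For each, the share of all rows at or below its mean level rounded to 98.5%. Next in FPKM came Cnn2, Tagln, Vcl and Actg2 (98.5 to 105, 90.7 to 92.6, 62.4 to 64.4 and 53.8 to 55.4), with no overlap between neighbours. Mkl1 (17.4 to 17.6) and Srf (16.7 to 17.4) stood side by side in scrambled siRNA cells, and Mkl2 (6.50 to 7.73) and Cnn1 (6.26 to 6.46) were lowest. In lnc-31 siRNA cells that order changed in places. Tpm1 (446 to 460.1 FPKM) no longer overlapped Acta2 (355 to 383), Tagln (51.5 to 60.6) overlapped Vcl (54.4 to 56.9), and Srf (9.73 to 10.8) lay well under Mkl1 (17.2 to 17.5).

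The transcription factor Srf (chr17:46546838-46558267, mm10) had 9.73 and 10.8 FPKM in lnc-31 siRNA cells, against 16.7 and 17.4 FPKM in scrambled siRNA cells. Both lnc-31 siRNA libraries lay below both scrambled siRNA libraries, by far more than libraries of a group differed. The log2 fold change was -0.68 (95% interval -0.85 to -0.52, limma adjusted p = 0.0075), a value that 0.461% of tested rows equalled or undershot. Its call held with any 1 library left out (adjusted p 0.017 to 0.047). SRF is known to act on its own gene, and its promoter is shown here because Srf is both the regulator and one of the 3 genes that fell most. The sequence is the RefSeq window from 250 bases before to 50 after an annotated start (GRCm38.p6), printed on the strand of the gene with CArG boxes in capitals. For Srf that window lies inside the gene span given above, so its start is not the outer end of the span.
Srf (chr17:46556113-46556412, minus strand): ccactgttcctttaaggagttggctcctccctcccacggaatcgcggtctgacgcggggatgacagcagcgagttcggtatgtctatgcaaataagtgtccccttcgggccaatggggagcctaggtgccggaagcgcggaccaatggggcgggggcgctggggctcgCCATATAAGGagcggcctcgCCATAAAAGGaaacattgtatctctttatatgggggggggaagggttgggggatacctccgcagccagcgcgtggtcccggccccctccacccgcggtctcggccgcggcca

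The window of Srf holds a pair of CArG boxes, CCATATAAGG at 82 to 73 bases and CCATAAAAGG at 62 to 53 bases before the start. A search for the CArG box, which reads the same way on either strand, found it in 1.63% of all 32851 RefSeq windows of this length and in 1.61% of the 9051 genes of tested rows that had a window. Of the 8 genes of the set that had a window, 3 held the box: Srf, Cnn2 and Vcl. They are printed for comparison, together with Acta2, whose capitals mark near matches that have 1 G or C inside the A and T run (found in 8.5% of all windows).
Cnn2 (chr10:79988350-79988649, plus strand): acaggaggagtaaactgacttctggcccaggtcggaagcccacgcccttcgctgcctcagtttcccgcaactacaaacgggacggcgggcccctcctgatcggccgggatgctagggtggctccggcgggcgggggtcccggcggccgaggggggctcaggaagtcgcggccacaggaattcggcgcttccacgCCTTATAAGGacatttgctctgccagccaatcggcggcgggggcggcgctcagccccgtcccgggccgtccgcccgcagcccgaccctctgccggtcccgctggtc
Vcl (chr14:20929148-20929447, plus strand): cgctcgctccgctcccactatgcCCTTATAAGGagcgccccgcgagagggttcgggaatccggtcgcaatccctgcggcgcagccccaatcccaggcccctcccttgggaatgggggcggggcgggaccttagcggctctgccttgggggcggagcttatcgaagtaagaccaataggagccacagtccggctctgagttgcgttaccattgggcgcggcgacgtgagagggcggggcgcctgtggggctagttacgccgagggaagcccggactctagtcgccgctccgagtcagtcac
Acta2 (chr19:34255324-34255623, minus strand): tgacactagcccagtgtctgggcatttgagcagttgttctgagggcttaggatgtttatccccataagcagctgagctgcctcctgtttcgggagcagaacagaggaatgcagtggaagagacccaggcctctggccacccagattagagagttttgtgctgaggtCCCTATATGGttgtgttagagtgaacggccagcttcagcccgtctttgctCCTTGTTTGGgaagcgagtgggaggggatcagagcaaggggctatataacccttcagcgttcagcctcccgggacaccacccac

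Cnn2 and Vcl carry the same box, CCTTATAAGG, at 56 to 47 and at 227 to 218 bases before the start, and Acta2 carries CCCTATATGG at 84 to 75 bases and CCTTGTTTGG at 34 to 25 bases. The windows of Cnn1, Tpm1 and Mkl2 held neither form, and a window of Mkl1 held 1 near match. Among the genes with a window, Srf and Cnn2 hold the box and were called lower, and Vcl holds it and was not called. Acta2, with near matches only, and Cnn1, with neither form, were also called lower. Tagln and Actg2, both called lower, had no window, so the box could not be set against the fall for the whole set. These matches describe letters in a short window and say nothing on whether SRF was bound.

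The MRTF cofactor genes gave no call. Mkl1 (chr15:81012281-81190736, mm10) had 17.5 and 17.2 FPKM in lnc-31 siRNA cells, against 17.4 and 17.6 FPKM in scrambled siRNA cells, a log2 fold change of -0.014 with an interval of -0.13 to 0.10 (limma adjusted p = 0.87). Mkl2 (chr16:13256056-13417529) had 6.90 and 6.46 FPKM in lnc-31 siRNA cells, against 6.50 and 7.73 FPKM in scrambled siRNA cells. Its groups overlapped, and the log2 fold change of -0.076 had a wider interval, -0.30 to 0.15 (limma adjusted p = 0.61). The interval of Mkl1 leaves out a change of the size seen for Srf. MRTF activity is set by where the protein is in the cell, which mRNA levels do not show. Within each library, the ratio of Srf to Mkl1 mRNA was 0.557 and 0.631 in lnc-31 siRNA cells, against 0.959 and 0.992 in scrambled siRNA cells.

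Tagln and Cnn1 fell about as far as Srf. Tagln (chr9:45929628-45936058, mm10) encodes transgelin, also known as SM22, an actin-bundling protein used as an early marker of smooth muscle. It had 51.5 and 60.6 FPKM in lnc-31 siRNA cells, against 90.7 and 92.6 FPKM in scrambled siRNA cells. The lnc-31 siRNA libraries differed more from each other than the scrambled siRNA libraries did, and both were lower. The log2 fold change was -0.70 (95% interval -0.90 to -0.51, limma adjusted p = 0.0094), and the call was narrowly lost without scrambled siRNA 1 (adjusted p = 0.0502) or scrambled siRNA 2 (0.059; range 0.0082 to 0.059 over the 4 libraries left out). Cnn1 (chr9:22099221-22109221) encodes basic calponin, an actin-binding protein that restrains actomyosin and marks mature smooth muscle. It had 3.92 and 3.76 FPKM in lnc-31 siRNA cells, against 6.46 and 6.26 FPKM in scrambled siRNA cells. The groups were tight and separate, with a log2 fold change of -0.61 (95% interval -0.77 to -0.44, limma adjusted p = 0.0089), and the call held with any 1 library left out (0.034 to 0.049). On the log2(FPKM + 1) scale the change of a gene as low as Cnn1 is understated: the ratio of its group means was 0.603, beside 0.602 for Srf and 0.612 for Tagln.

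The smooth muscle actins and Cnn2 fell by a smaller amount. Acta2 (chr19:34240336-34255585, mm10), the alpha actin of smooth muscle and of activated fibroblasts, had 355 and 383 FPKM in lnc-31 siRNA cells, against 442 and 445 FPKM in scrambled siRNA cells. Actg2 (chr6:83512909-83536251), the gamma actin of visceral smooth muscle, had 45.0 and 47.0 FPKM in lnc-31 siRNA cells, against 55.4 and 53.8 FPKM in scrambled siRNA cells. In both actins every lnc-31 siRNA library was below every scrambled siRNA library, with log2 fold changes of -0.27 (limma adjusted p = 0.033) and -0.24 (0.027). Actin mRNAs are near copies of each other, and no label says how the authors' counting shared reads among them, so these values carry that uncertainty. Cnn2 (chr10:79988600-79995400), the calponin of non-muscle and smooth muscle cells, had 84.8 and 89.3 FPKM in lnc-31 siRNA cells, against 98.5 and 105 FPKM in scrambled siRNA cells (log2 fold change -0.22, limma adjusted p = 0.047). These 3 calls were each lost with any 1 library left out (adjusted p 0.053 to 0.14 for Acta2, 0.065 to 0.13 for Actg2 and 0.087 to 0.18 for Cnn2), while the log2 fold changes stayed between -0.32 and -0.18. They were also lost with a constant prior variance (0.058, 0.056 and 0.085), and that of Cnn2 was lost with no filter on low values (0.055).

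Vcl and Tpm1 were not called. Vcl (chr14:20929383-21033676, mm10) encodes vinculin, which ties focal adhesions to actin filaments. It had 56.9 and 54.4 FPKM in lnc-31 siRNA cells, against 64.4 and 62.4 FPKM in scrambled siRNA cells. The groups did not overlap, and the log2 fold change of -0.19 (95% interval -0.30 to -0.075) missed the threshold narrowly (limma adjusted p = 0.052). It passed when only rows averaging at least 5 FPKM were tested (0.043) and missed it with any 1 library left out (0.094 to 0.20). Tpm1 (chr9:67022590-67049672), the alpha tropomyosin that lies along actin filaments and is spliced differently in muscle and other cells, had 446 and 460.1 FPKM in lnc-31 siRNA cells, against 439 and 465 FPKM in scrambled siRNA cells. Those ranges overlapped, and the log2 fold change was 0.0053 (95% interval -0.12 to 0.13, limma adjusted p = 0.95). A gene row adds up its splice forms, so a shift between smooth, striated and non-muscle forms of Tpm1 could not be seen.

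**Figure D2:**
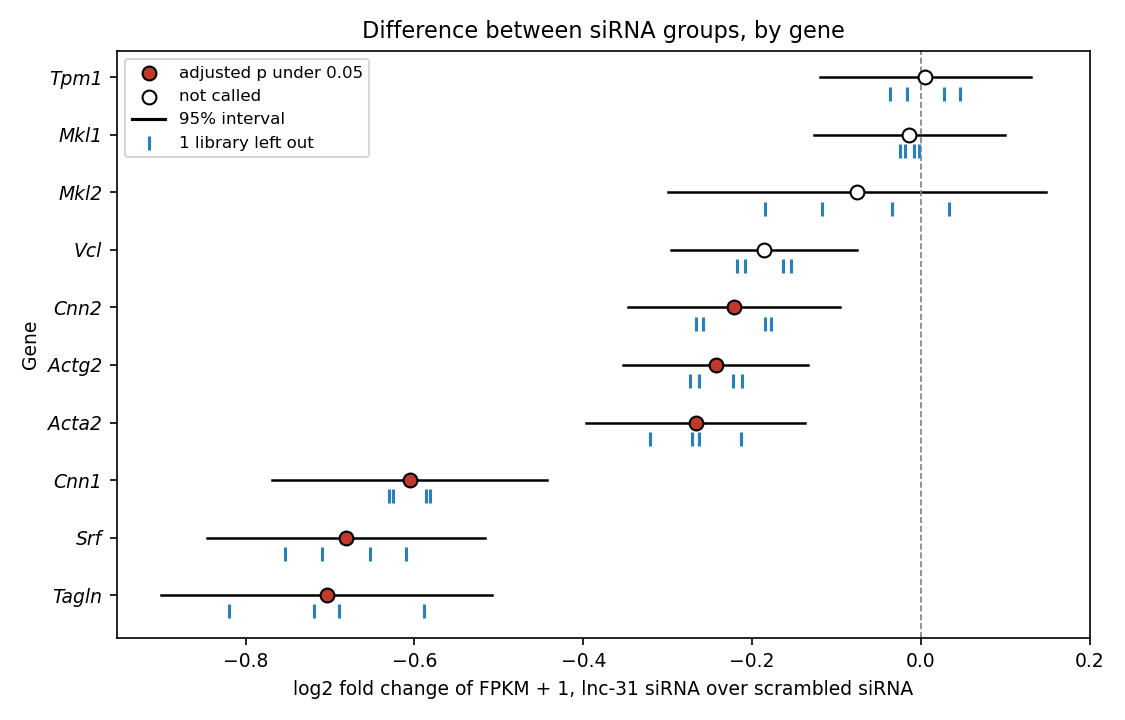
The log2 fold change of FPKM + 1 (x axis, lnc-31 siRNA over scrambled siRNA) of each gene, with its 95% limma interval, filled where the adjusted p was under 0.05 and with blue ticks for the fits that leave out 1 library. Tagln, Srf and Cnn1 lie between -0.70 and -0.61, the other called genes between -0.27 and -0.22, and the interval of Tpm1 spans 0.

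Paralogs of these genes, read in the same libraries, gave a mixed picture for the actins. The sarcomeric actins rose: Acta1, the skeletal muscle actin, had 49.4 and 50.1 FPKM in lnc-31 siRNA cells, against 28.7 and 32.0 FPKM in scrambled siRNA cells (limma adjusted p = 0.0057). Actc1, the cardiac actin that embryonic skeletal muscle also makes, had 70.1 and 70.7 FPKM in lnc-31 siRNA cells, against 41.5 and 42.4 FPKM in scrambled siRNA cells (limma adjusted p = 0.0030). Of 9 tested paralogs these 2 rose and 0 fell in the limma fit (0 lower also at an unadjusted p under 0.05), with a median log2 fold change of 0.053. Among all tested rows 5.64% were called higher and 6.78% lower, so 0 lower calls among 9 genes lies near the share of all rows. Cytoplasmic beta actin (Actb) had 1410 and 1459 FPKM in lnc-31 siRNA cells, against 1520 and 1527 FPKM in scrambled siRNA cells (limma adjusted p = 0.34). A ratio to Actb within each library does not depend on how the library was scaled. Actb is itself counted among the other actin and SRF targets below, and it was lower in both lnc-31 siRNA libraries than in either scrambled siRNA library. A ratio to Actb therefore shows a smaller fall, or a larger rise, than the FPKM of the gene alone. For Acta2 over Actb it was 0.252 and 0.262 in lnc-31 siRNA cells, against 0.291 and 0.291 in scrambled siRNA cells, and for Actc1 over Actb it was 0.0498 and 0.0485 in lnc-31 siRNA cells, against 0.0273 and 0.0278 in scrambled siRNA cells. The ratio of Acta2 to Actg2 overlapped between groups, at 7.90 and 8.15 in lnc-31 siRNA cells, against 7.99 and 8.27 in scrambled siRNA cells.

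Transgelin and the calponins were set against their paralogs in the same way. Tagln2, the broadly expressed transgelin, had 249.9 and 261 FPKM in lnc-31 siRNA cells, against 268 and 295 FPKM in scrambled siRNA cells (limma adjusted p = 0.19; called lower under quantile normalization, 0.043). The ratio of Tagln to Tagln2 was 0.206 and 0.232 in lnc-31 siRNA cells, against 0.339 and 0.314 in scrambled siRNA cells. Cnn3, the acidic calponin, had 316 and 309 FPKM in lnc-31 siRNA cells, against 293 and 300.1 FPKM in scrambled siRNA cells (limma adjusted p = 0.28). Set against Cnn3 in the same library, Cnn1 was at 0.0124 and 0.0121 in lnc-31 siRNA cells, against 0.0220 and 0.0209 in scrambled siRNA cells, and Cnn2 at 0.268 and 0.289 in lnc-31 siRNA cells, against 0.336 and 0.349 in scrambled siRNA cells. For Tpm1 the ratios went different ways: over Tpm4, a non-muscle tropomyosin, it was 1.06 and 1.06 in lnc-31 siRNA cells, against 1.09 and 1.13 in scrambled siRNA cells. Over Tpm3 it was higher, at 2.41 and 2.41 in lnc-31 siRNA cells, against 2.32 and 2.34 in scrambled siRNA cells. Over Tpm2, the beta tropomyosin, the groups overlapped, at 2.56 and 2.65 in lnc-31 siRNA cells, against 2.76 and 2.63 in scrambled siRNA cells. The libraries of the groups did not overlap in the ratios of Tagln, Cnn1 and Cnn2, and also not in those of Tpm1 to Tpm4 and to Tpm3. Lack of overlap was common: among single rows it held for 31.7% with lnc-31 siRNA lower and for 28.5% with it higher. With 2 libraries a group an exact permutation test cannot go below p = 0.333.

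**Figure D3:**
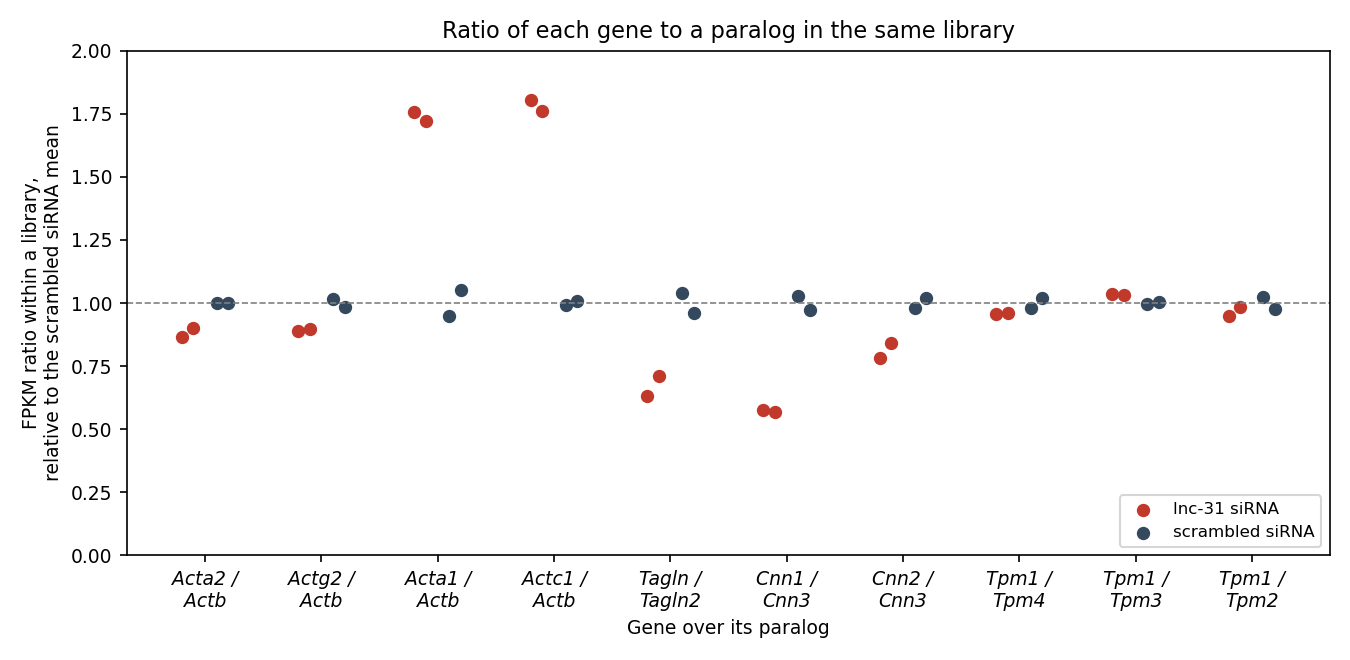
Ratio of FPKM of a gene to that of a paralog in the same library (y axis from 0, divided by the mean ratio of the 2 scrambled siRNA libraries), with 1 point per library, lnc-31 siRNA left of scrambled siRNA. Acta1 and Actc1 over Actb lie above 1 with lnc-31 siRNA, and Acta2, Actg2, Tagln, Cnn1 and Cnn2 over the paralogs shown lie below it, while Tpm1 with lnc-31 siRNA lies below the scrambled siRNA libraries over Tpm4, above them over Tpm3 and overlaps them over Tpm2.

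Other genes known to answer to actin and SRF were divided in their calls. Of 24 tested, 3 fell and 4 rose (6 lower and 4 higher at an unadjusted p under 0.05). Over all tested rows 6.78% were called lower and 5.64% higher. The median log2 fold change was -0.065, beside -0.0067 over all tested rows, and 16 of the 24 were below 0, beside 51.8% of all tested rows. The siRNA groups did not overlap for 14 that were lower and 5 that were higher with lnc-31 siRNA, beside 31.7% and 28.5% of all tested rows. Zyx, the focal adhesion protein zyxin, fell to 208 and 207 FPKM in lnc-31 siRNA cells, against 244 and 239 FPKM in scrambled siRNA cells (limma adjusted p = 0.027). The other falls, named after their values were seen, were the secreted factor Ctgf (log2 fold change -0.33, limma adjusted p = 0.039) and the focal adhesion protein Tgfb1i1, or Hic-5 (-0.27, 0.045). Besides Acta1 and Actc1, the muscle intermediate filament gene Des rose to 202 and 209 FPKM in lnc-31 siRNA cells, against 175 and 172 FPKM in scrambled siRNA cells (limma adjusted p = 0.024). Pdlim7, also named after its value was seen, encodes an actin-associated LIM protein and had a log2 fold change of 0.21 (limma adjusted p = 0.046). With any 1 library left out the calls of Zyx, Des, Ctgf, Tgfb1i1 and Pdlim7 were lost (adjusted p 0.087 to 0.14, 0.059 to 0.12, 0.079 to 0.15, 0.068 to 0.15 and 0.085 to 0.17), while those of Acta1 and Actc1 held (0.021 to 0.032 and 0.012 to 0.025). With a constant prior variance the first 5 of these calls were also lost (0.0501 to 0.084), and those of Tgfb1i1 and Pdlim7 with no filter on low values (0.054 and 0.052). Of the 20 of these genes that had a RefSeq window, 7 held a CArG box: Acta1 and Actc1, which rose, and Actg1, Myl9, Fhl1, Fhl2 and Lima1, which were not called.

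Genes on the TCF side of SRF gave 1 call. Of 9 immediate early and related genes 1 fell and 0 rose in the limma fit (2 lower and 1 higher at an unadjusted p under 0.05). Their median log2 fold change was -0.023. The fit called 6.78% of all tested rows lower and 5.64% higher, so 1 call among 9 genes says little about them as a set. Egr1, a zinc finger factor induced by growth signals, had 20.3 and 20.4 FPKM in lnc-31 siRNA cells, against 25.4 and 24.3 FPKM in scrambled siRNA cells (log2 fold change -0.28, limma adjusted p = 0.023), a call lost with any 1 library left out (0.077 to 0.11). Ier2, another early response gene, had 14.1 and 14.9 FPKM in lnc-31 siRNA cells, against 16.7 and 17.0 FPKM in scrambled siRNA cells, and did not pass (limma adjusted p = 0.061; called lower under quantile normalization, 0.039, and median of ratios, 0.038). The survival factor Mcl1 (log2 fold change 0.14, called higher under quantile normalization, 0.047) and the AP-1 subunit Fosb (-0.22) did not pass either. Among the other cofactors and regulators of SRF, 0 of 4 were called by limma (1 lower at an unadjusted p under 0.05). These were Elk1 and Elk4, each in a row merged with a second gene, Elk3, and Scai, a repressor of MRTF. Elk1, in the row shared with Uxt, had 28.5 and 30.0 FPKM in lnc-31 siRNA cells, against 32.6 and 36.5 FPKM in scrambled siRNA cells (limma adjusted p = 0.079; called lower under either scaling alternative, quantile normalization or median of ratios, at 0.042). Myocd, the muscle-specific cofactor, was not analysed here.

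Genes of actin turnover and of the kinase in the study's title were read as well. Dstn encodes destrin, which severs and depolymerizes actin filaments. It had 125 and 126 FPKM in lnc-31 siRNA cells, against 180.0 and 184 FPKM in scrambled siRNA cells, a log2 fold change of -0.54 (limma adjusted p = 0.0053) that held with any 1 library left out. Cap2, an actin monomer-binding protein, had 1.74 and 2.38 FPKM in lnc-31 siRNA cells, against 1.12 and 1.13 FPKM in scrambled siRNA cells, and was not called (limma adjusted p = 0.055; called higher under median of ratios scaling, 0.043). Rock1 itself had 17.8 and 17.6 FPKM in lnc-31 siRNA cells, against 16.6 and 17.1 FPKM in scrambled siRNA cells (limma adjusted p = 0.38).

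**Figure D4:**
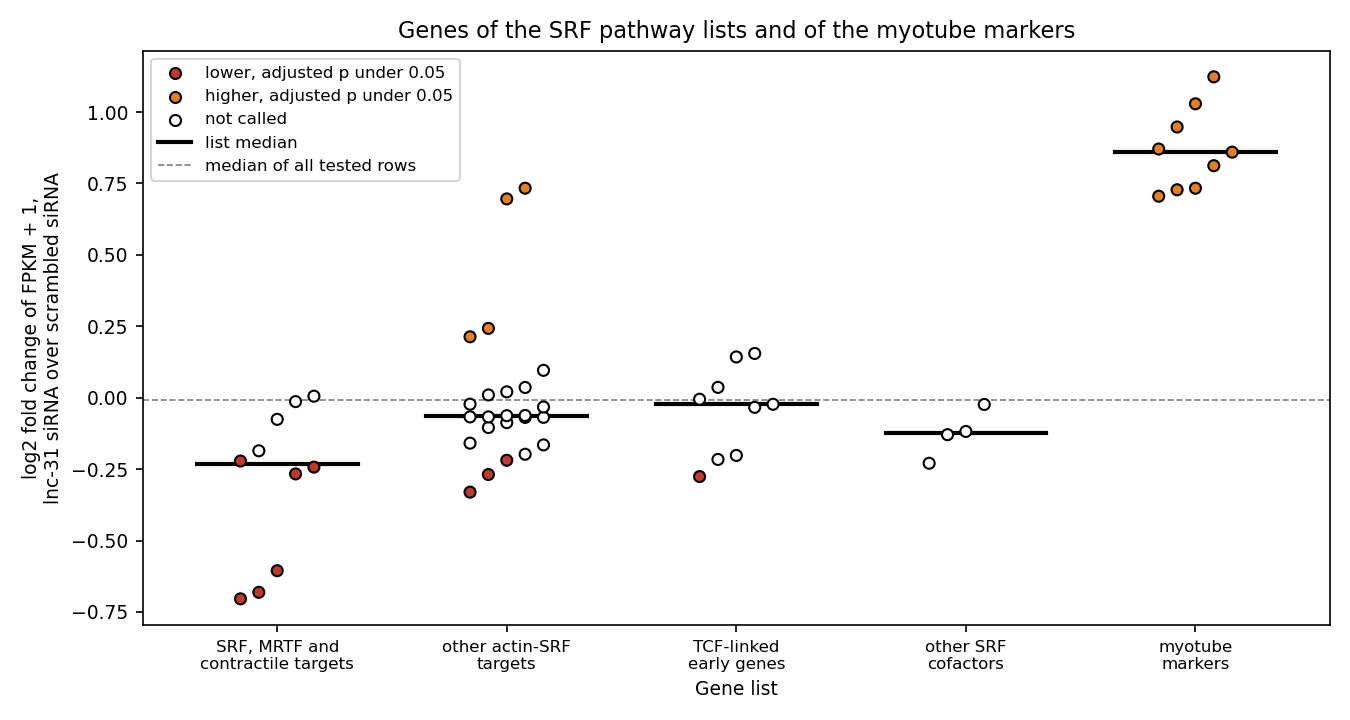
The log2 fold change of FPKM + 1 (y axis, lnc-31 siRNA over scrambled siRNA) of every tested gene in 5 lists, colored where called, with a bar at each list's median and a dashed line at the median of all tested rows. The median is -0.23 for the SRF, MRTF and contractile set, -0.065 for other actin and SRF targets and 0.86 for myotube markers.

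Muscle differentiation markers moved with the siRNA groups. All 9 listed myotube markers were called higher by limma (adjusted p under 0.05), beside 5.64% of all tested rows. These were Myog, Myh3, Actc1, Mylpf, Myl1, Tnnc1, Tnnt3, Ckm and Mb. Their summed level was 428 and 444 FPKM in lnc-31 siRNA cells, against 228 and 261 FPKM in scrambled siRNA cells. Of 5 fibroblast markers 4 were called higher in the same test. Their sums were 669 and 643 FPKM in lnc-31 siRNA cells, against 537 and 549.8 FPKM in scrambled siRNA cells, over all 5. Of 4 smooth muscle markers, Lmod1 (0.444 to 0.556 FPKM), Synm (0.229 to 0.321) and Mylk (0.678 to 1.05) were low in every library and were not tested. Synm and Mylk were higher in both lnc-31 siRNA libraries than in either scrambled siRNA library, and Lmod1 overlapped between groups. The sum of the 4 was 19.4 and 19.7 FPKM in lnc-31 siRNA cells, against 20.9 and 23.1 FPKM in scrambled siRNA cells. Nearly all of that sum was smoothelin (Smtn), which was lower without being called (limma adjusted p = 0.093), so the sum does not speak for the other markers. Actc1, Des and Smtn stand in a marker list and among the SRF targets above. Whether the rise of the myotube or fibroblast markers is linked to the fall of Srf, Tagln, Cnn1 and the smooth muscle actins was not tested. In bulk RNA, fewer cells expressing a gene and less of its RNA per cell cannot be told apart.

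In the pull-down, none of the 10 genes held a peak with the lnc-31 probes. The lnc-31 probes gave 596 peaks and the lacZ probes 476, with 1 library per probe set and so no replicate check and no test. A peak with the lnc-31 probes lay in the gene span of 1.77% of the 12686 table rows with a RefSeq span, and a lacZ peak in 1.72%. The spans of the 10 genes run from 6431 bases (Tagln) to 178456 bases (Mkl1). Vcl held 1 lacZ peak of 200 bases (chr14:20991001-20991200, mm10). By comparison, Rock1 held 10 lnc-31 probe peaks and 0 lacZ probe peaks. The count of 0 lnc-31 probe peaks in the 10 genes was the same when spans were extended by 1000 bases on each side or when peaks had to lie wholly inside them.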

How the data were processed

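RNA from proliferating C2C12 cells was made into stranded mRNA libraries, and pull-down RNA was amplified as whole transcriptome, per the labels' protocols. Of the 4 siRNA libraries the authors deposited FPKM. The submitters' processing notes name Cuffdiff, TopHat2, BWA, Bowtie2, Trimmomatic and CASAVA on mm10 for them, without order or version. The deposited peak lists hold 1 value per peak that lies between 0 and 0.01 and was taken for a p-value from its range alone; it was not used. No source used here names the peak caller. The input library was not analysed here.

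Low FPKM values gave no steps of whole reads: among 792 rows under 0.6 FPKM the commonest ratio between the scrambled siRNA libraries, to 3 digits, was shared by 12. Depth is therefore unknown. The 11500 rows averaging 1 FPKM or more were compared as log2(FPKM + 1) with limma 3.58.1 in R 4.3.3 (trended prior variance, two-sided, Benjamini-Hochberg adjustment over all tested rows). Fold changes on this scale understate the change of low genes. Replicates were the libraries the titles number, and 0 sample columns matched no label. RefSeq (GRCm38.p6, with mm10 coordinates) gave gene spans and promoter windows. Mkl1 and Mkl2 were matched through their current symbols, and 8 of 10 genes had a promoter window. A peak lay in a gene if it overlapped its span by 1 base. Genes named were the 10 chosen ones, Rock1, the Mir31 row and up to 4 of each pathway list by smallest p; the summary of 1 of these lists and some of its genes are not reported here. The genes and lists were chosen with earlier results of these data known. Ctgf, Tgfb1i1, Pdlim7, Actb, the thymosins and genes named for their peaks or CArG boxes were added after their values were seen. Diaph1, Diaph2, Diaph3, Ssh3, Tagln3, Msc, Thy1 and Myh11 were listed but not analysed here. Alternatives left out each library in turn, took the replicate number as a block, used a constant prior variance, scaled by median of ratios or by quantiles, set the pseudocount to 0.1 or 0.5 and the filter to 5 FPKM or none, and changed the overlap rule. Python 3.11.15 was used.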

Additional observations from a re-analysis of the deposited data

How the results depend on the processing

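The 10 genes gave 6 lower and 0 higher calls, and the count of lower calls was 5 to 7 under both pseudocounts, no filter, a mean of 5 FPKM, quantile normalization and median of ratios scaling. It was 3 with a constant prior variance, and 2 to 3 with 1 library left out (Srf and Cnn1 in every such fit, Tagln in 2 of 4). The count of higher calls was 0 in every setting. Over all rows 1429 were called, and 260 to 491 with 1 library left out (289 and 260 when a scrambled siRNA library, 1 or 2, was dropped, and 491 and 415 when lnc-31 siRNA library 1 or 2 was). Part of that loss follows from testing 3 libraries in place of 4. With 1 library left out, the sign turned for 3 genes that were not called in any such fit. The log2 fold change of Mkl2 ran from -0.19 to 0.034 (0.034 on dropping scrambled siRNA 2), that of Tpm1 from -0.036 to 0.047 (-0.036 on dropping scrambled siRNA 1, -0.016 on dropping lnc-31 siRNA 2) and that of Elk3 from -0.060 to 0.013 (0.013 on dropping scrambled siRNA 1). The cause was not tested. Replicate numbers were not taken as pairs in the main fit. Deviations of same-numbered libraries had a correlation of -0.09 over 11500 rows, which does not settle whether those libraries were paired. Over all rows a fit with the replicate number as a block called 1613, beside 1429 without it. With the replicate number as a block 7 of the 10 genes were called lower, Vcl being the added one (adjusted p = 0.034), Elk1 was called lower (0.038), and the calls of Ctgf (0.056) and Tgfb1i1 (0.0503) were lost. The median of all rows moved by less than 0.1 (log2) under every scaling.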

Other observations

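Among the pathway lists, Fhl2, a LIM-domain protein that binds SRF and is a target of it, held 6 lnc-31 probe peaks and 0 lacZ probe peaks, in a span of 75273 bases. Its mRNA was at 49.9 and 51.6 FPKM in lnc-31 siRNA cells, against 49.0 and 50.1 FPKM in scrambled siRNA cells (limma adjusted p = 0.61). Rock2 held 3 lacZ peaks and 0 with the lnc-31 probes, and Cald1 and Rnd3 held 1 lacZ peak each and 0 with the lnc-31 probes. These genes were picked after their peaks were seen, and 1 library per probe set gives no test.

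The thymosins, small proteins that buffer actin monomers, lay higher in both lnc-31 siRNA libraries without passing the test. Tmsb4x had 763 and 788 FPKM in lnc-31 siRNA cells, against 641 and 722 FPKM in scrambled siRNA cells (limma adjusted p = 0.14; called higher under quantile normalization, 0.029). Tmsb10 had 1599 and 1768.5 FPKM in lnc-31 siRNA cells, against 1482 and 1570.4 FPKM in scrambled siRNA cells (limma adjusted p = 0.26).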
